A study of Sus scrofa with 6 samples.

Results

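MHC class II molecules were represented on the porcine array by 14 probe sets of 8 gene names, out of 24123 probe sets in all, and these are described here array by array in aortic valve leaflets of male and female pigs. They are every probe set that the annotation of the array names SLA-DRA, SLA-DRB1, SLA-DQA1, SLA-DQB1, SLA-DMA, SLA-DMB or CD74, together with the 1 probe set that the study lists under the human name HLA-DRB4. Of the 14, 10 are given to 1 gene by the annotation, 3 are given to both SLA-DRB1 and LOC106504372 (a second locus, for which the reference lists SLA-DRB as a synonym), and HLA-DRB4 has no name in the annotation. Leaflet RNA from 3 female and 3 castrated male pigs of mixed breed, 5 months old and about 90 kg, was hybridized with 1 pig per array. All leaflets were taken within 5 hours of death from slaughterhouse hearts, and their endothelium was scraped off with a scalpel. No intact males were included. Expression is given on the log2 scale as deposited after RMA (background correction, a common distribution for all arrays, 1 summary per probe set), with array medians between 7.33 and 7.38. With so few arrays the precision is low throughout, and the p values measure the spread between individual pigs.

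MHC class II molecules display peptides from engulfed proteins to CD4+ T cells. Each is a pair of an α and a β chain, such as DR or DQ, which is assembled around the invariant chain CD74 and receives its peptide in endosomes with the help of the DM heterodimer. The pig genes, named SLA for swine leukocyte antigen, lie in one cluster except for CD74, and the β chain genes are among the most variable between individuals. Class II is carried by macrophages, dendritic cells and B cells, can be induced by interferon-γ through the coactivator CIITA in other cells, and is present on some endothelial cells of the pig. Probe sets with the ending _x_at contain probes that can also match other transcripts, so signals of related β chains may be shared, and no probe sequences were used to separate them. Levels are compared only within a probe set, since different probe sets bind with different strength.

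The peptide-binding class II genes were expressed in the leaflets of all 6 pigs, differed several-fold between individual animals, and had overlapping levels in males and females. SLA-DRA, the α chain of DR, was at 11.65, 12.34 and 11.52 in males 1, 2 and 3 and at 12.61, 11.71 and 10.67 in females 1, 2 and 3. The highest and the lowest of these values both belonged to females, 3.85-fold apart, and the sexes overlapped. The log2 difference of SLA-DRA between males and females was 0.18 (95% interval -0.93 to 1.28, adjusted p = 0.885 from limma over all 23999 probe sets other than controls). SLA-DQA1, the α chain of DQ, was at 12.07, 12.76 and 11.72 in males and at 13.03, 11.98 and 11.41 in females, with the same 2 females at the ends. Its difference was 0.05 (95% interval -0.97 to 1.06, adjusted p = 0.971). SLA-DQB1, the β chain that pairs with it, was at 12.44, 12.93 and 12.03 in males and 12.95, 12.11 and 11.54 in females, a difference of 0.27 (95% interval -0.61 to 1.15, adjusted p = 0.767). Here female 1 and male 2 lay side by side and female 3 lay lowest. These intervals still include a 2-fold difference in the male direction, and without female replicate 3 the differences of SLA-DRA, SLA-DQA1 and SLA-DQB1 were -0.32, -0.32 and -0.064.

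The genes of peptide loading had the same order of animals within each sex as SLA-DRA, but female 2, above males 1 and 3 for SLA-DRA, was below all males for CD74, SLA-DMB and SLA-DMA. CD74, the invariant chain that fills the groove until a peptide is loaded, was at 11.38, 12.07 and 11.22 in males and at 11.78, 10.75 and 10.44 in females. Male 2 was highest and females 2 and 3 were lowest, and the difference of 0.56 (95% interval -0.31 to 1.44, adjusted p = 0.488 from limma) did not pass. SLA-DMB, a chain of the peptide exchange factor DM, was at 11.14, 11.48 and 10.86 in males and 11.28, 10.66 and 10.18 in females, a difference of 0.45 (adjusted p = 0.471). SLA-DMA, its partner chain, was at 11.08, 11.38 and 10.43 in males and 11.16, 10.40 and 10.11 in females at the brighter of its 2 probe sets (Ssc.13777.1.S1_at), a difference of 0.41 (adjusted p = 0.574). Without female replicate 3 the differences of CD74, SLA-DMB and SLA-DMA were 0.29, 0.19 and 0.19, and without female replicate 1 they were 0.96, 0.74 and 0.71. Without male replicate 2 they were 0.31, 0.29 and 0.20, and SLA-DMA was at 0.67 without male replicate 3. The second probe set, Ssc.13777.2.S1_at, was at 10.003, 9.34 and 9.66 in males and 9.23, 9.71 and 9.44 in females. It was lowest in male 2 and female 1, the arrays where the first probe set was highest, so the 2 probe sets of SLA-DMA did not rank the animals alike.

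**Figure D1:**
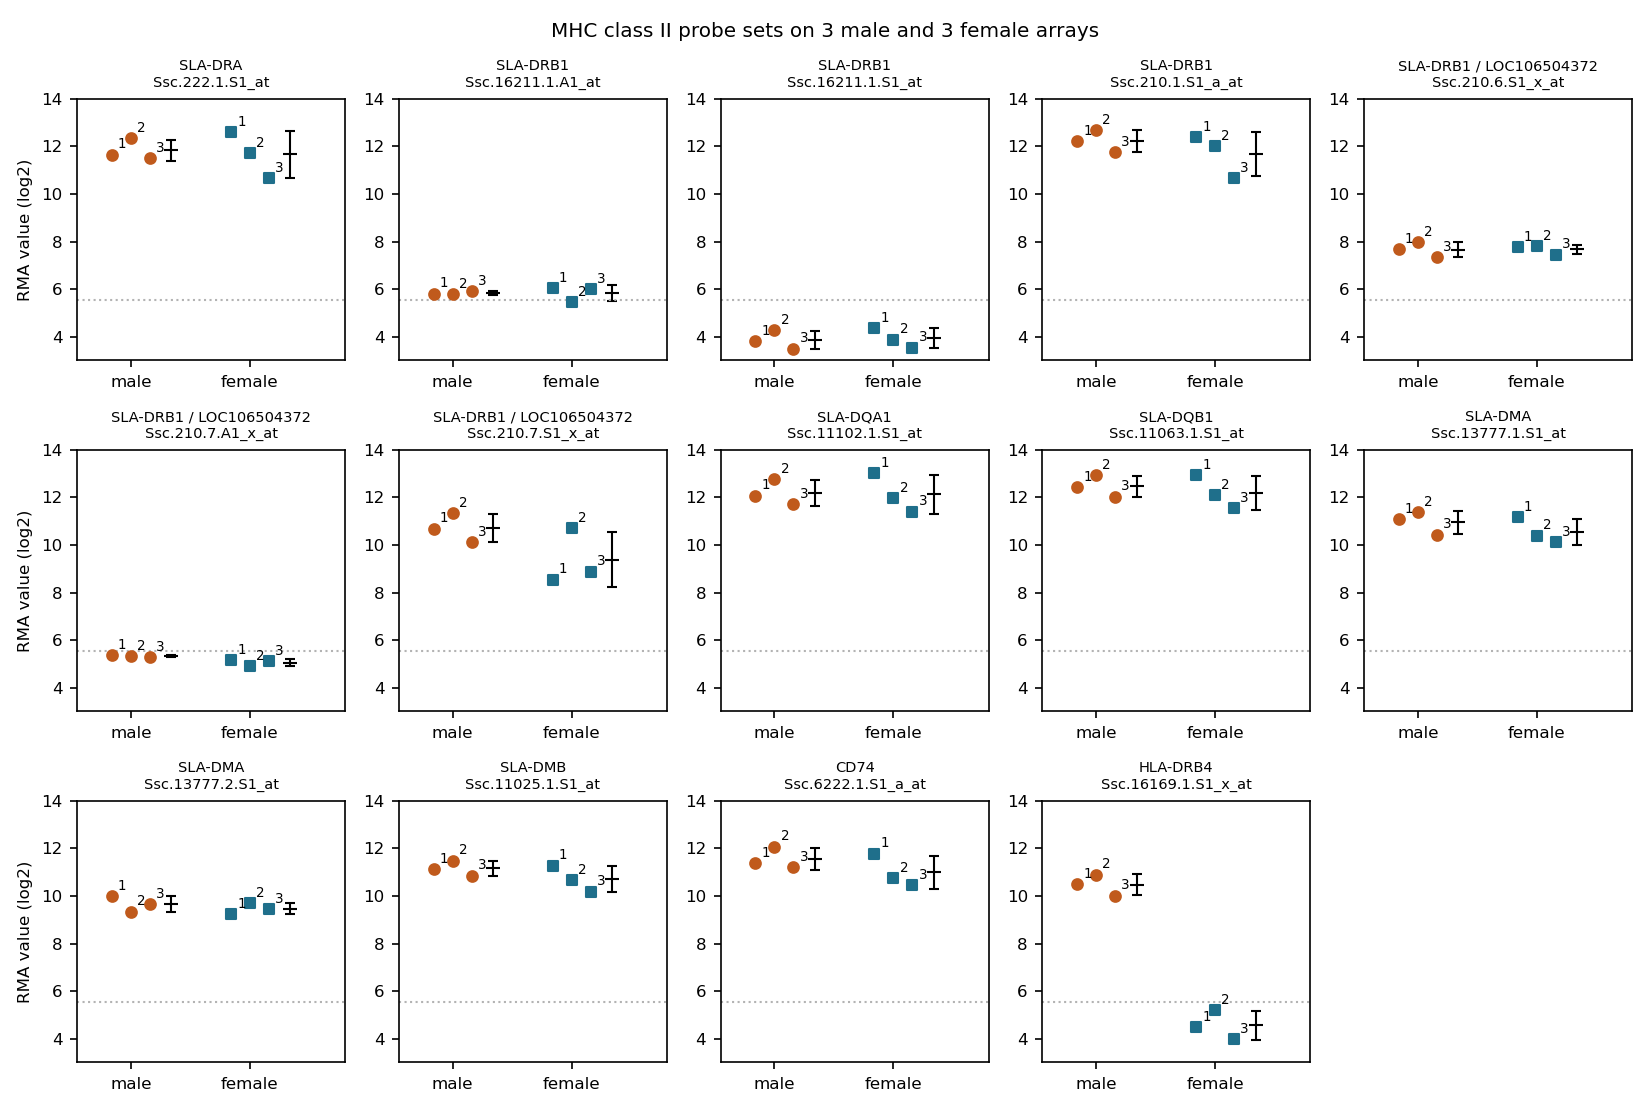
RMA values (log2) of the 14 MHC class II probe sets on 3 male (circles) and 3 female (squares) arrays, numbered by replicate, bars giving mean and SD per sex, and a dotted line at the 25th percentile of all values. The sexes overlap for SLA-DRA, SLA-DQA1, SLA-DQB1, SLA-DMA, SLA-DMB and CD74, while HLA-DRB4 lies between 10.01 and 10.90 in males and between 3.98 and 5.19 in females.

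Among the probe sets of DR β chains the animals were ranked in several ways. SLA-DRB1 at its brightest probe set, Ssc.210.1.S1_a_at, was at 12.23, 12.68 and 11.75 in males and 12.39, 12.02 and 10.65 in females. This probe set followed SLA-DRA, with female 3 lowest and an overlap of the sexes, and its difference was 0.53 (SE 0.45, adjusted p = 0.605 from limma), or 0.011 without female replicate 3, 0.30 without male replicate 2 and 0.88 without female replicate 1. Ssc.210.7.S1_x_at, shared by SLA-DRB1 and LOC106504372, was at 10.69, 11.33 and 10.12 in males but at 8.55, 10.71 and 8.88 in females. Female 2 lay within the male range and females 1 and 3 lay below all males, although female 1 had the highest SLA-DRA of the 6 pigs. The difference at Ssc.210.7.S1_x_at was 1.33 (95% interval -0.02 to 2.68), with an adjusted p of 0.302 over all probe sets and 0.128 among the 10% of probe sets with the highest coefficient of variation (the CV filter). A difference between the sexes raises this coefficient, so adjusted p values with the CV filter can be too low. Without female replicate 2 the difference at Ssc.210.7.S1_x_at was 2.00 and passed with the CV filter (adjusted p = 0.0176 from limma). No other omission of 1 array made it pass.

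HLA-DRB4, named for a human β chain of DR, was at 10.49, 10.90 and 10.01 in males and at 4.49, 5.19 and 3.98 in females. The sexes were 5.91 apart on the log2 scale (60.2-fold), and this was the 5th largest male excess of the 23999 probe sets. The female values all lie under the 25th percentile of all values (5.52), so the size depends on the background. The name HLA-DRB4 was given in a list that the study selected on these same arrays for a difference between the sexes, so the difference is given as a description, and its call in the counts below is no independent evidence. Leaving out 1 array at a time, it ranged from 5.62 to 6.23. Within each sex the array order at Ssc.16169.1.S1_x_at, the HLA-DRB4 probe set, was that of Ssc.210.6.S1_x_at (2, 1, 3 in both sexes). After the mean of each sex was subtracted, HLA-DRB4 correlated at r = 0.88 with Ssc.210.6.S1_x_at, 0.87 with Ssc.210.7.S1_x_at, 0.76 with Ssc.210.1.S1_a_at and 0.56 with SLA-DRA, and at -0.82 with the dim Ssc.16211.1.A1_at, over the 6 arrays, values that describe 6 pigs and carry no test. The reference assembly Sscrofa11.1 places the pseudogene SLA-DRB4 between SLA-DRA and SLA-DRB1, and whether the HLA-DRB4 probe set reads it was not tested.

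The remaining DR β probe sets were dim or differed little between the sexes. Ssc.210.6.S1_x_at, shared with LOC106504372, ranged from 7.33 to 7.98 over the 6 arrays with a log2 difference of -0.01. Ssc.16211.1.S1_at ranged from 3.50 to 4.37 and Ssc.16211.1.A1_at from 5.46 to 6.03, both named SLA-DRB1, with differences of -0.07 and 0.00. Over the 6 arrays Ssc.16211.1.S1_at correlated with SLA-DRA at r = 0.90 and Ssc.16211.1.A1_at at -0.06. Ssc.210.7.A1_x_at was at 5.36, 5.34 and 5.30 in males and 5.17, 4.90 and 5.10 in females, so the sexes did not overlap there, but the values were under the 25th percentile and the difference was 0.28 (adjusted p = 0.265 from limma).

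**Figure D2:**
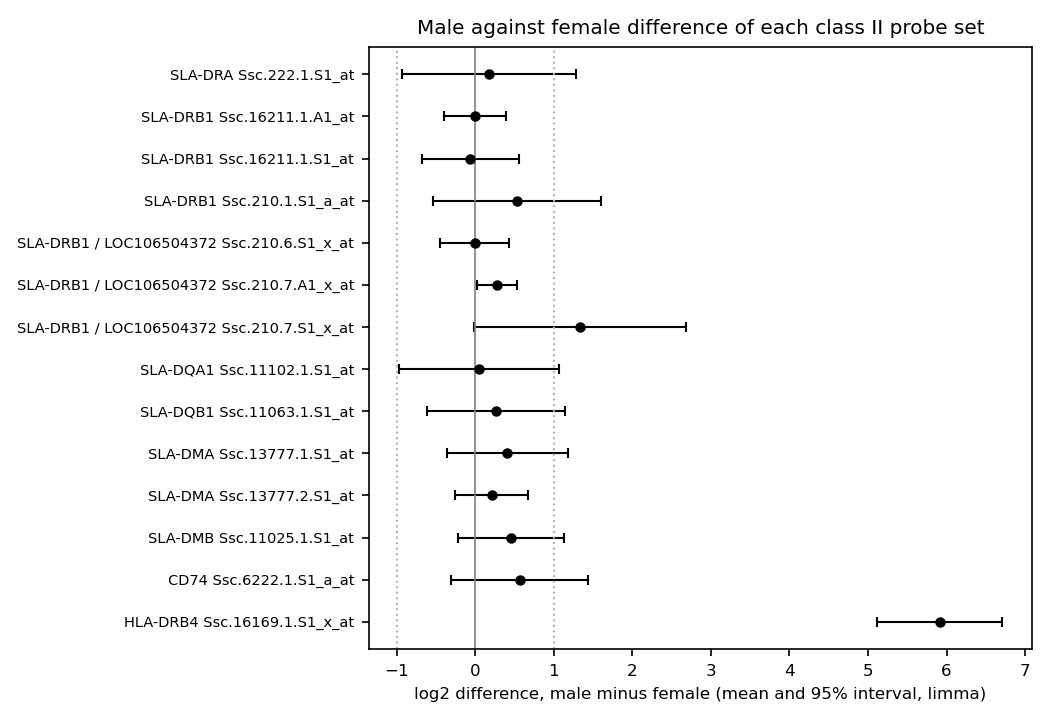
Log2 difference, male minus female, of each class II probe set with its 95% interval from limma over 3 male and 3 female arrays, with dotted lines at 2-fold. HLA-DRB4 stands at 5.91, and the other 13 lie between -0.07 and 1.33.

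Counted together, 1 of the 14 members was called different at an adjusted p under 0.05 and at least 2-fold, against 0.304% of all probe sets (0.167% called higher and 0.138% called lower in males), and that was HLA-DRB4, whose name rests on this contrast. None of the other 13 was called by limma over all probe sets (adjusted p from 0.265 to 1), and 1 of them, Ssc.210.7.A1_x_at, had an unadjusted p under 0.05, as 16.9% of all probe sets did. The CV filter, by SD relative to the mean over the 6 arrays, kept 3 members, namely HLA-DRB4, Ssc.210.7.S1_x_at and the dim Ssc.16211.1.S1_at. Of these HLA-DRB4 was called, where 7.59% of the 2412 filtered probe sets were, 4.6% higher and 2.99% lower in males. The sexes did not overlap at HLA-DRB4 and Ssc.210.7.A1_x_at, 2 of 14 members, against 22.4% of all probe sets, and both were higher in males, as 11.1% of all probe sets were without overlap. A higher mean in males was found for 10 of the 13 members other than HLA-DRB4 (median log2 difference 0.27), for 11 of 14 with it, and for 49.1% of all probe sets (median -0.01). The count of 11 ranged from 9 without female replicate 3 to 14 without female replicate 1. Neighboring members of one gene share sequence and all share the 6 animals, so they are not independent counts.

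The variation between pigs within a sex was large for the class II genes. Taking for each of the 7 annotated genes its brightest probe set, the SD within a sex ranged from 0.448 (SLA-DMB) to 0.756 (SLA-DRA) on the log2 scale, while the median was 0.166 over the 11999 probe sets whose mean lies above the median of the array. This placed the 7 genes between the 93.5th and the 98.8th percentile of those probe sets. The highest and lowest arrays were 2.42-fold (SLA-DMA) to 4.07-fold (SLA-DRB1) apart. Differences between the sexes made up 0.165% (SLA-DQA1) to 27.8% (SLA-DMB) of the variation over the 6 arrays, where the median of all probe sets was 24.4%. In all 7 genes male 2 was above male 1 and male 1 above male 3, and female 1 was above female 2 and female 2 above female 3. The highest array was male 2 for 4 genes and female 1 for 3, and female 3 was the lowest array for all 7, as it was for 22.0% of the probe sets above the median. Averaged over the 7 genes, the deviation from the probe set mean was 0.64 in male 2 and 0.58 in female 1, 0.12 in male 1, -0.22 in female 2, -0.24 in male 3 and -0.88 in female 3. The 21 pairs of these genes correlated at r = 0.84 to 0.98 over the 6 arrays, and at 0.84 to 0.998 after the mean of each sex was subtracted. CD74 took part in this although it lies on another chromosome. The second SLA-DMA probe set, Ssc.13777.2.S1_at, did not, with r = -0.37 to SLA-DRA and -0.19 to the brighter SLA-DMA probe set.

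**Figure D3:**
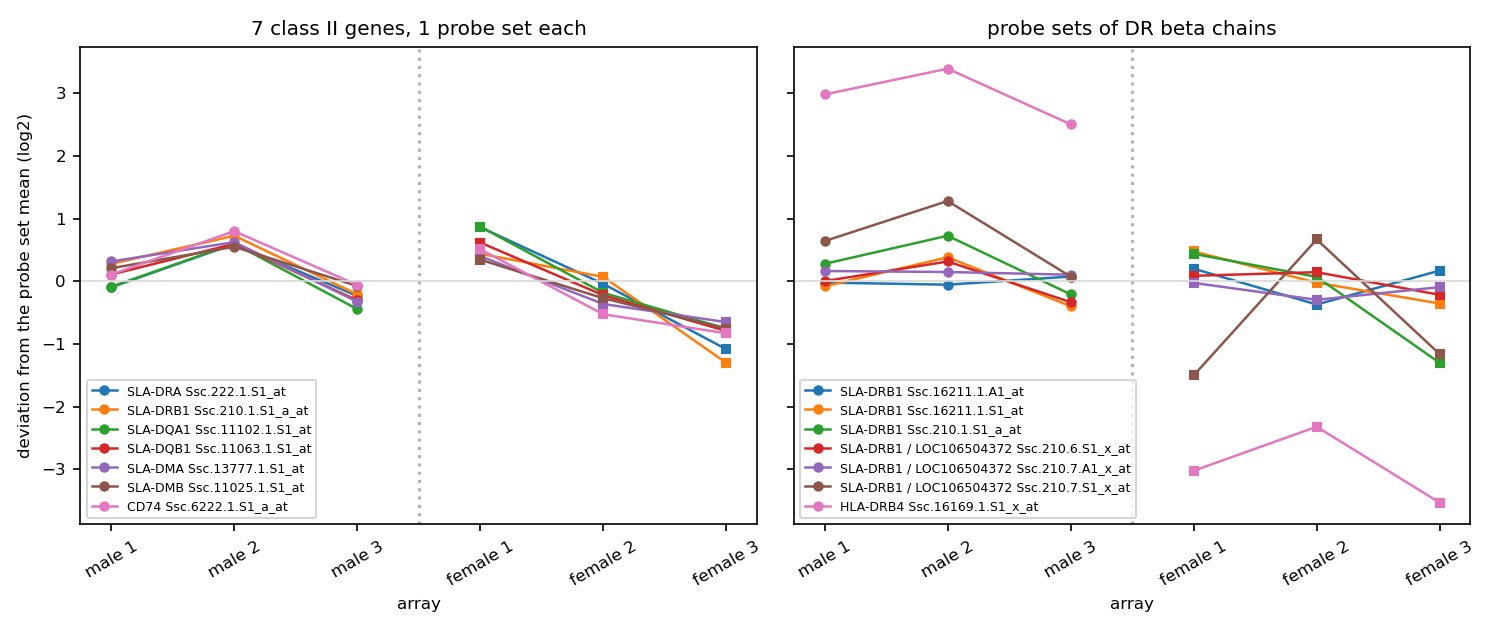
Deviation of each probe set from its own mean (log2) on each array, circles for males and squares for females, lines joining the points of 1 probe set within a sex. The left panel shows 7 class II genes that keep 1 order of animals within each sex, with female 3 lowest of all, and the right panel the 7 DR β chain probe sets, among which HLA-DRB4 splits by sex and Ssc.210.7.S1_x_at is low in females 1 and 3.

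The genes most like SLA-DRA over the 6 arrays, among 6105 probe sets with 1 gene and a mean above the median, were JAK3 (r = 0.99), SLA-DOA (0.98), THAP11 (0.98), KMO (0.98) and SLA-DQB1 (0.96), with SLA-DQA1 next. SLA-DOA, a chain of the DO heterodimer that restrains DM, was at 7.58, 8.32 and 7.66 in males and 8.56, 7.53 and 6.82 in females. JAK3 is a kinase of cytokine receptors in blood cells and KMO an enzyme of tryptophan breakdown. THAP11, a transcription factor, varied by 0.19 on the log2 scale in all, so its likeness is one of pattern and not of size. Among 6105 candidates on 6 arrays, high values of r can also arise by chance, and the order by r was not tested. CIITA, which switches class II genes on, was the 12th gene in this order (r = 0.95), at 7.57, 7.71 and 7.38 in males and 7.68, 7.45 and 7.05 in females.

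Other genes of class II assembly and peptide loading showed small differences between the sexes. Of 10 measured genes of the list besides the members, the male mean was the higher for 9 and the lower for 1 (median log2 difference 0.23), none was called by limma with or without the CV filter, and 2 had an unadjusted p under 0.05. These were the cathepsins CTSC (0.61, adjusted p = 0.118) and CTSH (0.35, adjusted p = 0.213). CTSS, the protease that trims CD74, had a log2 difference of -0.07 (and 0.20 at another probe set), and IFI30, a thiol reductase of endosomes, 0.23. Of 6 measured genes of class II transcription, the male mean was the higher for 3 and the lower for 3 (median 0.05), none was called and none had an unadjusted p under 0.05. CIITA had a log2 difference of 0.16 (adjusted p = 0.698 from limma) and RFXANK, a subunit of the RFX complex on class II promoters, 0.28. Of 15 measured genes of class I presentation, each at its brightest probe set, the male mean was the higher for 12 (median 0.22). None of these was called and none had an unadjusted p under 0.05. B2M, the light chain of class I, had a log2 difference of 0.11, while other probe sets named B2M reached -0.72 and 0.61. The probe set at -0.72 had no overlap of the sexes and an unadjusted p of 0.00053 (adjusted p = 0.0732 from limma). Dimmer probe sets of CANX (-0.63) and PDIA3 (0.51) also had an unadjusted p under 0.05 (adjusted p = 0.0951 and 0.283 from limma). The mean of the class I list correlated with that of the 7 class II genes at r = 0.98 over the 6 arrays, and at 0.94 without male 2 and female 3. Female 1, with a class II deviation of 0.58, stays among the 4 arrays left. Values of r without male 2 and female 3, here and below, can thus rest largely on female 1.

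Genes of the interferon-γ response and of class II recognition gave no called difference between the sexes. Of 15 measured genes of interferon-γ signaling, males had the lower mean for 11 (median -0.07), none was called by limma, and JAK2 alone had an unadjusted p under 0.05 (-0.70, adjusted p = 0.144). IRF1, a transcription factor induced by interferon-γ, was at 9.46, 9.94 and 8.93 in males and 9.88, 10.39 and 8.58 in females. The chemokine CXCL9, which interferon-γ induces, was at 7.10, 12.05 and 7.62 in males and at 11.54, 10.75 and 6.87 in females. CXCL9 was high in male 2 and females 1 and 2 and low on the other arrays. The mean of the interferon-γ list correlated with that of the 7 class II genes at r = 0.81 (Spearman's rho 0.94) over the 6 arrays. Without male 2 and female 3 this r was 0.58. Of 11 measured genes of costimulation and class II recognition, males had the lower mean for 7 (median -0.03), none was called, and 2 had an unadjusted p under 0.05, CD58 (0.47) and CTLA4 (-0.40), the latter under the 25th percentile on all 6 arrays. CD40, the receptor through which T cells activate antigen-presenting cells, had the largest difference of the list (0.73, adjusted p = 0.357 from limma). Its other probe sets were at 0.81 and 1.03, both with an unadjusted p under 0.05 (adjusted p = 0.271 and 0.231).

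Markers of the cell types that carry class II moved with these genes to different degrees. All 17 measured markers of valve interstitial cells and fibroblasts were above the 25th percentile, with SPARC, VIM and FN1 brightest, in leaflet tissue as labelled. Macrophage markers, 18 measured of 24 listed and 2 of them under the 25th percentile, had a mean log2 level of 9.56 to 9.89 in males and 9.29 to 9.91 in females, highest in female 1 and male 2 and lowest in female 3. This mean correlated with the mean of the 7 class II genes at r = 0.997 (Spearman's rho 0.94) over the 6 arrays, and at 0.999 without the 2 arrays farthest from the median, male 2 and female 3. The brightest were the complement chains C1QC (log2 difference 0.26) and C1QA (0.30) and the scavenger receptor CD163 (-0.07). Males had the higher mean for 9 macrophage genes and the lower for 9 (median 0.06), and none was called, with LAPTM5 and TYROBP at an unadjusted p under 0.05. Dimmer probe sets of CD163 (-0.86) and LAPTM5 (0.86) also had an unadjusted p under 0.05 (adjusted p = 0.177 and 0.0757 from limma). In RNA of whole leaflets, fewer cells of a type and less RNA per cell cannot be told apart, and what part macrophages have in the class II levels was not tested.

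T cell markers, 11 measured of 20, had a mean level of 6.05 to 6.71 in males and 5.90 to 6.92 in females. This mean was again highest in female 1 and male 2. It correlated with the class II mean at r = 0.88, and at 0.94 without male 2 and female 3. The latter rests largely on female 1, at 6.92, where the other arrays left were at 5.95 to 6.10. CD3E, a chain of the T cell receptor complex, was at 6.46, 7.93 and 6.36 in males and 8.48, 6.11 and 6.21 in females, and the log2 differences of CD3E, CD3D and LAT were -0.02, 0.08 and -0.12. B cell markers, 4 measured of 15, had a mean level of 6.42 to 7.58 in males and 6.32 to 7.09 in females. This mean correlated with the class II mean at r = 0.87, and at 0.94 without male 2 and female 3. Among the B cell markers BLNK and BTK were measured, and CD79B, a chain of the B cell receptor, was under the 25th percentile. Their plasma cell gene JCHAIN was at 7.26, 10.30 and 6.22 in males and 8.16, 6.93 and 6.31 in females. With so wide a range JCHAIN weighs heavily in the B cell mean of 4 genes, and no r was computed without it. Dendritic cell markers, 8 measured of 17, had means of 7.28, 7.47 and 7.13 in males and between 7.25 and 7.50 in females. FSCN1 (-0.38), CD209 (-0.50) and IRF8 (0.20) were brightest. The mean of the dendritic cell list correlated with the class II mean at r = 0.74, and at 0.77 without male 2 and female 3. None of the T, B or dendritic cell markers was called by limma, and FSCN1 alone had an unadjusted p under 0.05.

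Endothelial markers had another pattern. Males had the higher mean for 15 of 18 measured genes, 2 of them under the 25th percentile (median 0.79), and the adhesion proteins ICAM2 (1.70, adjusted p = 0.0260) and ESAM (1.59, adjusted p = 0.0395) and the peptide receptor CALCRL (1.42, adjusted p = 0.0339) were called by limma after CV filtering. The study had named ICAM2, ESAM and CALCRL as different on these same arrays, so their calls are no independent evidence. The count of 15 is not wholly independent either. KDR, CD93 and ELTD1, also on the endothelial list, were among the differing genes of the study too. Over the whole array limma called none of the endothelial list, of which 8 had an unadjusted p under 0.05. A second ESAM probe set was at -0.26. No endothelial gene was called without male replicate 1, male replicate 2 or female replicate 3. Without male replicate 3, 6 were called over all probe sets and 5 with the CV filter. With the replicate number as a block, 2 were called over all probe sets. The mean level was 8.62 to 9.53 in males and 8.18 to 8.94 in females, and PECAM1, NOS3 and ENG, the brightest, had log2 differences of 1.11, 0.97 and 0.41. It correlated with the class II mean at r = 0.41, and at -0.38 without male 2 and female 3. Female 1 joined the highest SLA-DRA to an endothelial mean of 8.23, near the lowest. Valve interstitial and fibroblast genes, where males had the lower mean for 13 and 7 of 17 had an unadjusted p under 0.05, had a mean level between 12.36 and 12.61 on all arrays (r = -0.69), with log2 differences of -0.17 for SPARC, 0.04 for VIM and -0.16 for FN1. MFAP5, a microfibril protein, was called higher in males with the CV filter (1.64, adjusted p = 0.0439 from limma). The call was lost when male 1, male 2, female 1 or female 2 was left out. The study had named MFAP5 as different on these same arrays, so its call is no independent evidence.

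**Figure D4:**
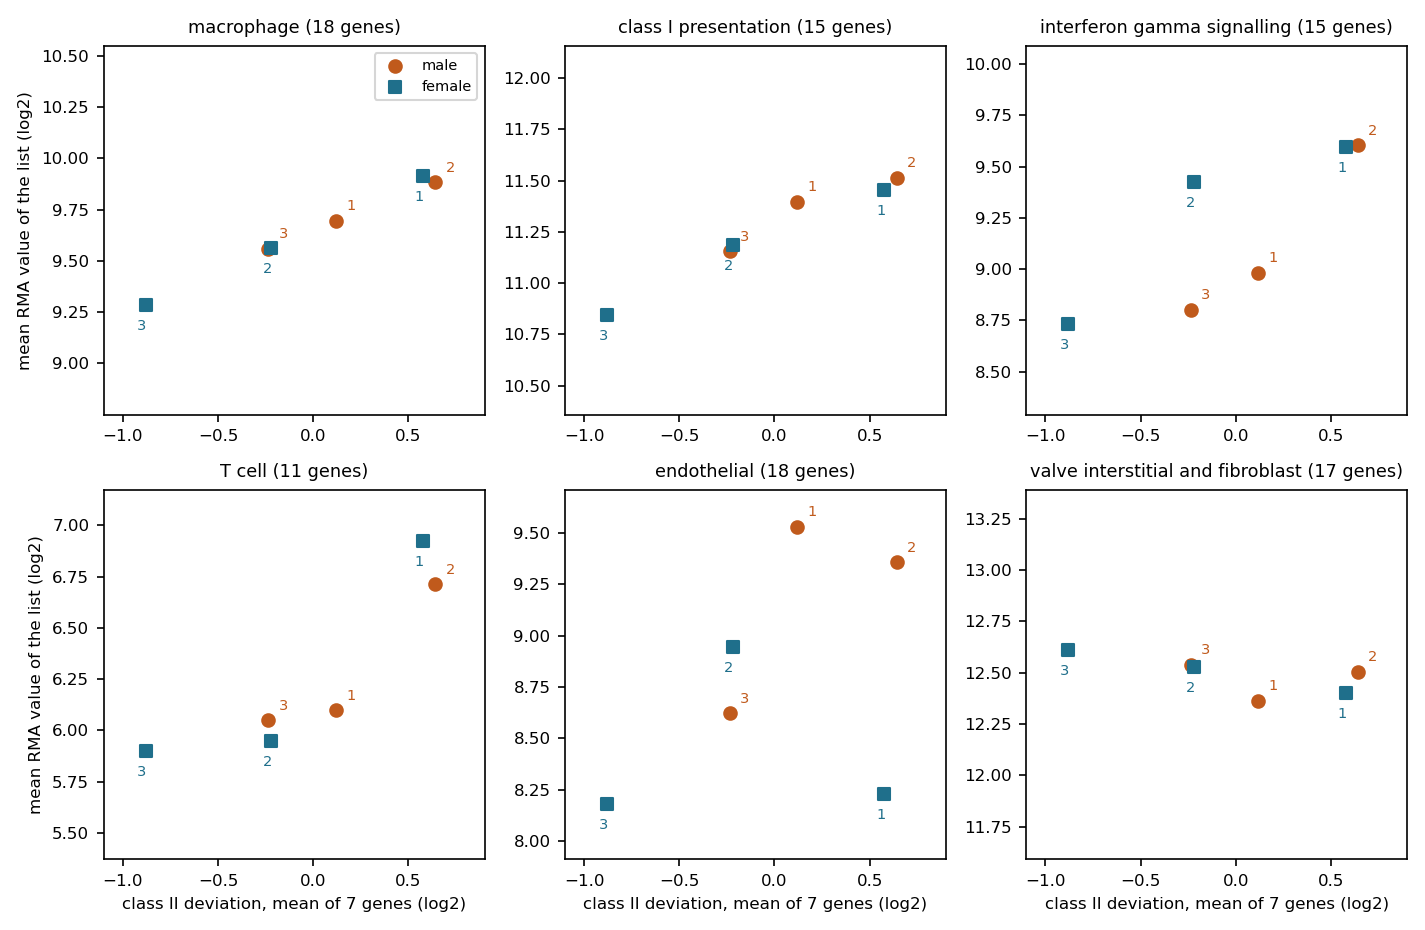
Mean RMA value (log2) of 6 gene lists against the mean deviation of 7 class II genes (log2) by array (circles, males; squares, females; numbered by replicate), each vertical axis spanning the same log2 distance. Macrophage markers and class I genes both follow class II closely, while the endothelial mean of female 1 is low although its class II genes are high.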

How the data were processed

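Total RNA (400 ng per pig) had been labelled and hybridized to Affymetrix porcine arrays, and the deposited log2 values were made by the authors with RMA in R 2.12.0. No raw intensities were used. Sexes were compared with limma 3.58.1 (statmod 1.5.0, R 4.3.3; male minus female, no covariate), once over the 23999 probe sets other than the 124 controls and once over the 10% of the 24123 with the highest CV of the 6 log2 values (at least 6.50%). The study names a CV filter without its share, and its supplement describes removing values that were dissimilar between replicates. Keeping the highest CV is a reading inferred from how its listed p values were adjusted. This CV is taken over both sexes, so a difference between them raises it and favors being kept. Adjusted p values after the filter can therefore be too low. Calls needed a Benjamini-Hochberg adjusted p under 0.05 and 2-fold. For single values an exact permutation test could not have passed, its smallest p with 3 arrays per sex being 0.1. The annotation of the array names 1 gene for 10069 probe sets and several for 198. In gene lists the probe set with the highest mean stood for a gene. No gene or probe sequences were printed.

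Members and lists were chosen with earlier results of these data known. Named genes are all members, called list genes, the 3 brightest markers of each cell type, a few regulators (RFX5 and RFXAP were not measured) and the 5 genes most like SLA-DRA. A gene's other probe set is named where its sign differs. Genes named for an unadjusted p under 0.05, CXCL9, CD40 and CD79B were chosen after their values were seen. The scripts were tested on simulated data. Alternatives are given in the closing section. Plots used Python 3.11.15 and matplotlib 3.10.9.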

Additional observations from a re-analysis of the deposited data

How the results depend on the processing

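The call of HLA-DRB4 was fixed in advance by how it was listed, so its behavior under the alternatives supports nothing. With the filter on a within-sex CV under the median, which did not keep it, 0 members were called. Counting only the 10 members named for 1 gene also left 0, an alternative chosen after seeing the data. Leaving out 1 array gave 13 (without male 2) to 285 (without male 3) called probe sets over all probe sets (73 with all arrays), 56 (without male 1) to 391 (without male 3) with the CV filter (183), 1 member over all probe sets, 1 to 2 members with the CV filter (2 without female 2) and 9 (without female 3) to 14 (without female 1) members with a higher mean in males. The filter on a within-sex CV gave 21 called probe sets. With the replicate number as a block, 204 and 302 probe sets and, with the CV filter, 2 members were called, the second being Ssc.210.7.S1_x_at (adjusted p = 0.0441 from limma). The sample labels state no pairing of the pigs by number. Deviations from the sex mean of same-numbered arrays correlated at -0.10, 0.01 and 0.27, the last being the highest of all pairs of a male and a female. Male 1 and male 2 correlated best with females of another number. With so few arrays these values cannot decide whether same-numbered arrays belong together.

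Leaving out 1 array turned the sign of small differences that were never called, with ranges of -0.32 to 0.65 for SLA-DRA, -0.32 to 0.49 for SLA-DQA1, -0.064 to 0.64 for SLA-DQB1, -0.17 to 0.15 for Ssc.210.6.S1_x_at, -0.19 to 0.10 for Ssc.16211.1.A1_at and -0.27 to 0.16 for Ssc.16211.1.S1_at. The causes were not tested. Sequence comparisons of the members were planned and not run. No probe-level signal over background was used, so dim probe sets are bounded only by the 25th percentile of all values.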
